A study of Mus musculus with 4 samples.

Results

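RNA of KO CD44hi cells was compared with RNA of WT CD44hi cells, gene by gene. CD44hi cells are CD4+ T cells with a high level of the adhesion receptor CD44, sorted from mouse spleen (C57BL/6 background). KO cells came from Ezh2fl/fl CD4-Cre mice, which carry loxP-flanked Ezh2 alleles and a Cre recombinase driven by the Cd4 promoter, active in developing T cells. WT cells came from mice labelled WT. Both were sorted on TCR beta, CD44 and CD4; ages and the number of mice per library are not given in the sources used here, nor whether cells that bind CD1d tetramers were kept out. The series also holds 1 library each of KO and WT invariant natural killer T (iNKT) cells, from mice of the same 2 genotypes, sorted with CD1d tetramers. A gene was a member when it reached 5 FPKM (fragments scaled to transcript length and to library depth) in KO CD44hi or WT CD44hi, which gave 8572 genes of 22484. With 1 library on each side, the values have no replicate check, no test is made and no p-value is given.

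Ezh2 is a histone methyltransferase, the main enzyme of Polycomb repressive complex 2 (PRC2). The complex methylates histone H3 at a lysine of its tail (the H3K27me3 mark) and so keeps many developmental and lineage genes silent, mostly at promoters rich in CpG dinucleotides. CD44hi CD4+ T cells of a spleen are antigen-experienced cells of several kinds, among them memory cells, follicular helper T (Tfh) cells, which help B cells, and regulatory T (Treg) cells, which restrain other T cells and depend on the transcription factor Foxp3. iNKT cells are an innate-like T cell lineage whose development depends on the transcription factor PLZF, the product of Zbtb16.

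The labelled cell type was checked first. Cd3e was at 329 FPKM in KO CD44hi and 308 in WT CD44hi, and Cd44 at 53.1 in KO CD44hi and 54.3 in WT CD44hi. Cd4 was at 252 FPKM in KO CD44hi and 405 in WT CD44hi, which is 0.765 of Cd3e in KO CD44hi and 1.31 times Cd3e in WT CD44hi. RNA of other cells was present in both libraries and is described further on. The Y-linked genes Eif2s3y and Ddx3y were listed at 0 and 0.00445 FPKM in KO CD44hi, against 22.7 and 11.5 in WT CD44hi. Xist, transcribed in female cells, was at 80.0 in KO CD44hi and 46.8 in WT CD44hi. WT CD44hi thus held RNA of Y-linked genes and of Xist, and KO CD44hi of Xist with next to none of the Y-linked genes. The sex make-up of the donors therefore differed and cannot be told apart from genotype. Ezh2 stood at 18.5 FPKM in KO CD44hi against 28.9 in WT CD44hi, a value over the whole gene that does not check the deletion. KO CD44hi held an estimated 1.33 times the fragments of WT CD44hi; KO iNKT held 0.293 and WT iNKT 0.271 times as many. Depth was derived from the spacing of low FPKM values. Fold values are plain ratios of FPKM, and an interval beside one is the 95% exact interval from the estimated fragments, which covers counting error only.

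A gene was called higher or lower when KO CD44hi and WT CD44hi differed by at least 2-fold on the log2(FPKM + 1) scale, which understates differences of low genes. On this criterion 165 members were higher in KO CD44hi (1.92% of members) and 91 were lower (1.06%), 2.99% in all. Counts in the gene lists below are to be read beside these shares. The members as a whole were centred, with a median log2 difference of 0.00. Near the criterion, Hes1 at 7.0 FPKM in KO CD44hi and 2.99 in WT CD44hi was called higher and Rell1 at 11.0 in KO CD44hi and 5.05 in WT CD44hi was not. On the other side, Bhlhe40 at 22 FPKM in KO CD44hi and 45.3 in WT CD44hi was called lower and Mapk11 at 12 in KO CD44hi and 24.6 in WT CD44hi was not. The T cell identity genes had a median difference of -0.39. Centring on them adds 0.39 to every difference, turns the sign of 11 list medians and gives 376 higher and 40 lower members.

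The members were split by their level in the iNKT libraries, which were sorted from the same organ. The summed level of the MHC class II pathway genes, carried by B cells and dendritic cells, was 237 FPKM in KO iNKT and 116 in WT iNKT, against 5133 in KO CD44hi and 3392 in WT CD44hi. Of the 8572 members, 7934 reached 5 FPKM in an iNKT library and are called shared below. Among these, 95 were higher in KO CD44hi (1.20%) and 41 lower (0.517%), 1.71% in all, or 237 and 9 with the centring on T cell identity genes. A further 415 members reached between 1 and 5 FPKM in the higher iNKT library, with 16 higher (3.86%) and 28 lower (6.75%), 10.6% in all. The remaining 223 members were below 1 FPKM in both iNKT libraries, and 54 of them were higher (24.2%) and 22 lower (9.87%), 34.1% in all. The last group had a median difference of 0.45, and 41.7% of it lay within 0.5 of 0 on the log2 scale, against 92.1% of the shared members. The split does not separate cell types fully. Of 120 members that mark other cells, 53 were shared and 49 were below 1 FPKM in both iNKT libraries, while 15 of 313 members of T cell lists, Foxp3 among them, also fell below 1 FPKM there.

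**Figure D1:**
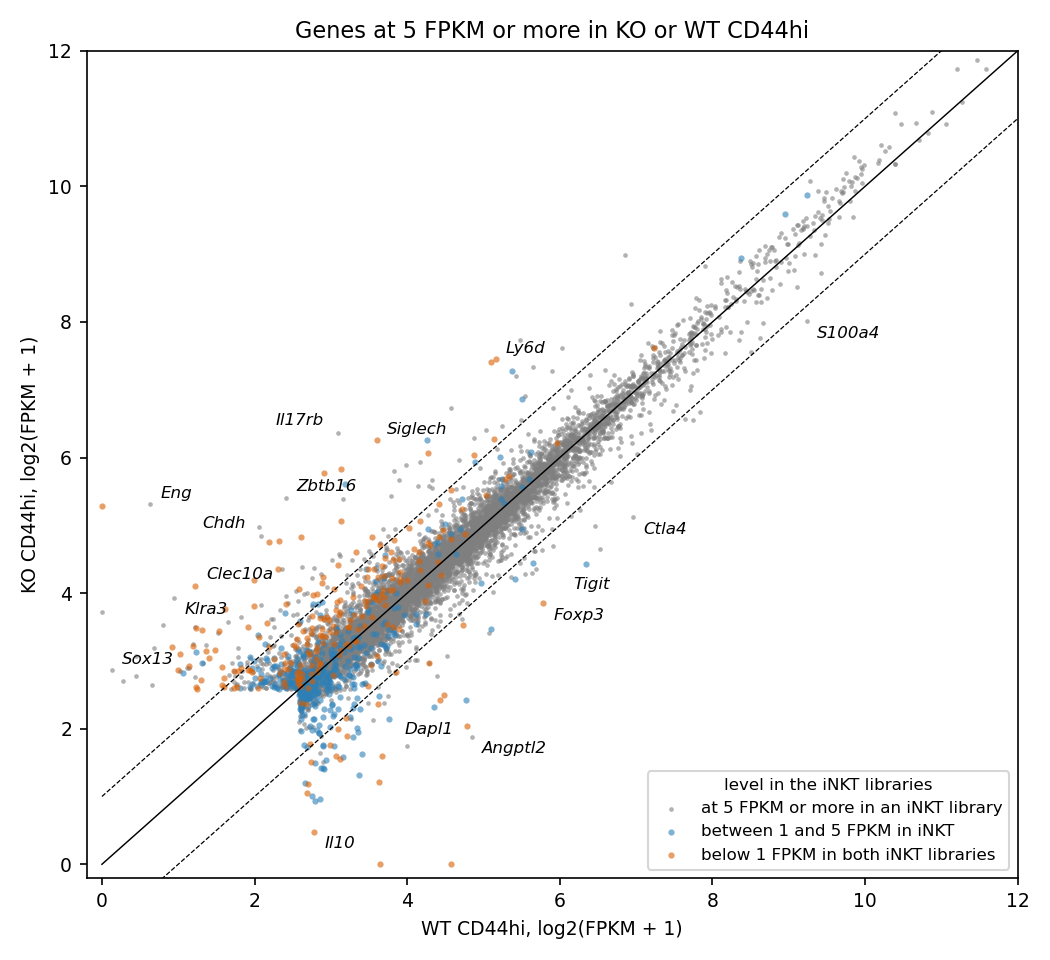
Level of each of the 8572 members in KO CD44hi (vertical axis) and WT CD44hi (horizontal axis), both as log2(FPKM + 1), with 1 point a gene coloured by its level in the iNKT libraries. The solid line marks equal levels and the dashed lines 2-fold; Eng, Il17rb and Zbtb16 lie far above the upper line, Foxp3, Ctla4 and Angptl2 below the lower one, and the members below 1 FPKM in iNKT (orange) are spread more widely than the shared ones (grey).

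Several shared members with large differences were below 1 FPKM in WT CD44hi. Eng, which encodes endoglin, a co-receptor for TGF beta ligands, was at 38.9 FPKM in KO CD44hi and 0.553 in WT CD44hi, 70.3-fold higher (interval 51.1 to 103). Sox13, a transcription factor known from gamma delta T cells, was 66.5-fold higher (32.3 to 193), at 6.30 FPKM in KO CD44hi and 0.0947 in WT CD44hi. Epha3, an ephrin receptor tyrosine kinase, was 20.4-fold higher (15 to 28.5), at 7.39 FPKM in KO CD44hi and 0.362 in WT CD44hi. By GENCODE M21, Eng lies at chr2:32646595-32682669, Sox13 at chr1:133382303-133424377 and Epha3 at chr16:63543534-63864175 (GRCm38), and the 250 bases before each gene's start (RefSeq, GRCm38.p6, strand of the gene) are shown, with CpG dinucleotides in capitals. They are examples chosen after the values were seen: all 3 genes were below 1 FPKM in WT CD44hi and called higher in both KO libraries, as were others, Arhgap24 and Clstn3 among them.
Eng: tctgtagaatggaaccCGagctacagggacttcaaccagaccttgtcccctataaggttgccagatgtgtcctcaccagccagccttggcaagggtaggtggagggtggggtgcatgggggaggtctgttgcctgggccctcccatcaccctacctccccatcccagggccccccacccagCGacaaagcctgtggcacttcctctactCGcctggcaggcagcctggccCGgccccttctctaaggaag
Sox13: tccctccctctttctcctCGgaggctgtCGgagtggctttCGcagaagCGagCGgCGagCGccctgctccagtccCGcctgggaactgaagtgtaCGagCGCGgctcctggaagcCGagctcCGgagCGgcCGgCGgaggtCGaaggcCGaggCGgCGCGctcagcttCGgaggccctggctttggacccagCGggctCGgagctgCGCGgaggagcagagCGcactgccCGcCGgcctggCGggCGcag
Epha3: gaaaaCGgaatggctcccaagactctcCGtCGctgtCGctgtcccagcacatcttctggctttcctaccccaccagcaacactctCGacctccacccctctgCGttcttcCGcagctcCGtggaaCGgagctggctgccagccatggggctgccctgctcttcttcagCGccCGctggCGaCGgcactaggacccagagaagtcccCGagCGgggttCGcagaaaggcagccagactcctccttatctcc
The Eng stretch (chr2:32646345-32646594, plus strand) held 4 CpG, the Sox13 stretch (chr1:133424213-133424462, minus strand) 31 and the Epha3 stretch (chr16:63864176-63864425, minus strand) 16. The RefSeq start of Sox13 lies inside the GENCODE span given above, so its stretch overlaps the end of that span. Exons of Fpgs overlap Eng on the other strand, and reads there cannot be assigned.

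A divergent gene pair stood among the strongest differences. Il17rb, which encodes a receptor subunit for interleukin 25, was at 80.9 FPKM in KO CD44hi and 7.55 in WT CD44hi. Chdh, which encodes choline dehydrogenase, a mitochondrial enzyme, was at 27.6 FPKM in KO CD44hi and 3.24 in WT CD44hi. Il17rb was thus 10.7-fold higher (9.47 to 12.2) and Chdh 8.51-fold higher (7.63 to 9.52). The genes are transcribed away from each other: Il17rb starts at position 30008896 of chromosome 14 on the minus strand and Chdh at 30009000 on the plus strand (RefSeq starts). Between the starts lie 103 bases, shown with CpG in capitals because both genes start beside them.
Il17rb-Chdh interval: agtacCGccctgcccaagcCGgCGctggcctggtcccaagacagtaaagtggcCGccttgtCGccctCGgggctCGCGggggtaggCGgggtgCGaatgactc
The interval (chr14:30008897-30008999, GRCm38.p6, plus strand) held 10 CpG. The genes on its flanks did not share the difference. Actr8, beyond the end of Il17rb, was at 18.8 FPKM in KO CD44hi and 20.8 in WT CD44hi, and Cacna1d, beyond the end of Chdh and no member, at 1.08 in KO CD44hi and 3.31 in WT CD44hi. The library kit does not mark strand, and exons of Actr8 overlap Il17rb and exons of Cacna1d overlap Chdh, so reads in the overlaps cannot be assigned. In the iNKT pair neither gene was called: Il17rb was at 126 FPKM in KO iNKT and 160 in WT iNKT, and Chdh at 37.6 in KO iNKT and 28.2 in WT iNKT.

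Other shared members with large differences had different roles. Zbtb16 was at 41.4 FPKM in KO CD44hi and 4.30 in WT CD44hi, 9.64-fold higher (8.72 to 10.7), and its FPKM beside that of Il17rb kept nearly the same proportion (Il17rb over Zbtb16 1.95 in KO CD44hi and 1.76 in WT CD44hi). Atp6v0d2, a subunit of the vacuolar proton pump, was also 9.64-fold higher (8.12 to 11.5), at 30.4 FPKM in KO CD44hi and 3.15 in WT CD44hi. Arhgap24, a GTPase activating protein, was at 5.5 FPKM in KO CD44hi and 0.214 in WT CD44hi, Clstn3, a calsyntenin, at 5.86 in KO CD44hi and 0.359 in WT CD44hi, and Gpnmb, a membrane glycoprotein, at 10.3 in KO CD44hi and 1.33 in WT CD44hi. Ccr9, a gut homing receptor that plasmacytoid dendritic cells also carry, was at 41.0 FPKM in KO CD44hi and 7.91 in WT CD44hi. Beta-s, a globin gene of red cells, was at 212 in KO CD44hi and 43.5 in WT CD44hi. For the last 2 genes, markers of plasmacytoid dendritic cells and of red cells moved with the result, and their part in it was not tested.

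Genes of NK cell receptors leaned to higher values in KO CD44hi. Of 19 members of the list, 9 were higher and 1 was lower, beside 1.92% and 1.06% of all members. The list had a median difference of 0.89, beside 0.00 over all members. Klra3 and Klra1, of the Ly49 family of receptors for MHC class I, were at 14.3 and 8.16 FPKM in KO CD44hi, against 0.925 and 0.610 in WT CD44hi. Klra23 was at 12.2 FPKM in KO CD44hi and listed at 2.12e-06 in WT CD44hi, below what 1 fragment gives, so no fold is stated. Klra genes are near-identical copies, and single values of this family are uncertain. Klrc1, Klrc2 and Klrc3, which encode NKG2 receptors, were at 49.8, 13.7 and 8.41 FPKM in KO CD44hi, against 13.8, 4.92 and 1.57 in WT CD44hi. Klrd1, whose product pairs with NKG2 chains, was at 45.3 FPKM in KO CD44hi and 23.9 in WT CD44hi and did not reach 2-fold, nor did Klrk1, the NKG2D gene, at 19.1 in KO CD44hi and 11.2 in WT CD44hi. The only member of the list called lower was Klrg1, at 1.5 FPKM in KO CD44hi and 9.32 in WT CD44hi. Markers of NK cells and type 1 innate lymphoid cells moved with this result only in part. Of 8 members of that list (20 listed), 3 were higher and 0 lower, with a median of 0.66 and 6 above 0. The 3 were Klrb1c, Tyrobp and Irf8, which also stand in the lists for iNKT lineage genes, monocytes and plasmacytoid dendritic cells, respectively. The summed level of that list was 732 FPKM in KO CD44hi and 345 in WT CD44hi, Irf8 included. Ncr1, which marks NK cells and is no member, was at 0.565 FPKM in KO CD44hi and 1.42 in WT CD44hi. Other genes of that list that are no members went both ways. Eomes was at 1.5 FPKM in KO CD44hi and 3.51 in WT CD44hi. Klra7, Klra8 and Klra4 were at 2.23, 0.365 and 0.309 FPKM in KO CD44hi, against 0.362, 0.135 and 0 in WT CD44hi. The part of NK cells in the result was not tested.

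Some of the called genes were neighbours on a chromosome. Of the 256 called members, which are 3.01% of those with a position, 39 (15.2%) lay next to another member called in the same direction, counting members alone. Several runs hold close copies, such as the Klra genes, which can share reads. Whether 39 is more than expected was not tested. The 3 runs of 3 were Klrc3, Klrc2 and Klrc1 and Klra17, Klra3 and Klra1 on chromosome 6, and 4930486L24Rik, Ctla2b and Ctla2a on chromosome 13. Ctla2a and Ctla2b, which encode inhibitors of cysteine proteases and are close copies of each other, were at 47.0 and 18.5 FPKM in KO CD44hi, against 16.6 and 6.34 in WT CD44hi. Another 15 runs held 2 genes each. Prkd3, a protein kinase, and Qpct, glutaminyl cyclase, were at 22.3 and 11.5 FPKM in KO CD44hi, against 7.71 and 2.53 in WT CD44hi. Among runs called lower, Nrp1 (neuropilin) and Itgb1 (integrin beta 1) were at 7.41 and 93.0 FPKM in KO CD44hi, against 22 and 214 in WT CD44hi, and Casp1 and Casp4, which encode inflammatory caspases, at 20.7 and 10.1 FPKM in KO CD44hi against 49.3 and 33.1 in WT CD44hi.

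Treg genes were the T cell list with the most members called lower. Of 24 members (27 listed), 15 were lower and 0 higher, beside 1.06% and 1.92% of all members, with a median difference of -1.32. With the centring on T cell identity genes 11 were lower and the median was -0.93. Foxp3 was at 13.4 FPKM in KO CD44hi and 53.8 in WT CD44hi, 4.01-fold lower (3.77 to 4.27); exons of Ccdc22 overlap it on the other strand. Several receptors of the list were among those lower. Ctla4, an inhibitory receptor, was at 33.8 FPKM in KO CD44hi and 123 in WT CD44hi, Tnfrsf4, the OX40 receptor, at 24.1 in KO CD44hi and 91.2 in WT CD44hi, and Tigit at 20.5 in KO CD44hi and 80.1 in WT CD44hi. Nt5e, an ectoenzyme that makes adenosine and is also known as CD73, was 2.59-fold lower (2.45 to 2.74), at 19.5 FPKM in KO CD44hi and 50.5 in WT CD44hi. Capg, an actin capping protein, was 2.83-fold lower (2.64 to 3.04), at 30.7 FPKM in KO CD44hi and 87.0 in WT CD44hi. Il10, the suppressive cytokine, was 14.9-fold lower (8.09 to 30.8), at 0.394 FPKM in KO CD44hi and 5.86 in WT CD44hi. Of the transcription factors, Ikzf4 (Eos) was at 1.8 FPKM in KO CD44hi and 5.94 in WT CD44hi and Prdm1 (Blimp-1) at 2.10 in KO CD44hi and 6.27 in WT CD44hi, both called lower.

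The list did not move as a block. Ikzf2, which encodes Helios, a factor of many Treg cells, was at 24.4 FPKM in KO CD44hi and 25.0 in WT CD44hi, so that Foxp3 over Ikzf2 was 0.551 in KO CD44hi and 2.15 in WT CD44hi. The costimulatory receptor Icos was at 77.5 FPKM in KO CD44hi and 76.6 in WT CD44hi, Entpd1 (CD39) at 6.65 in KO CD44hi and 6.99 in WT CD44hi, and Ebi3, a subunit of interleukin 35, at 14.7 in KO CD44hi and 14.5 in WT CD44hi. Folr4, a folate receptor homologue on Treg cells, was at 395 FPKM in KO CD44hi and 275 in WT CD44hi, and Il2ra (CD25) at 11.1 in KO CD44hi and 19.6 in WT CD44hi. These 6 genes stayed within 2-fold while Foxp3 did not. All 6 reached 5 FPKM in an iNKT library, so in this series they are not restricted to Treg cells. Foxp3 was at 0.115 FPKM in KO iNKT and 0.446 in WT iNKT. The 3 list members below 1 FPKM in both iNKT libraries had ratios of KO CD44hi over WT CD44hi from 0.0673 to 0.249. Of these, Il10 and Lrrc32 reached 5 FPKM in WT CD44hi alone. Gpr83 and Il1rl1, listed genes also below 1 FPKM in both iNKT libraries, reached 5 FPKM in neither CD44hi library. Their ratios were 0.546 and 0.476. Some shared members, Ctla4 and Tnfrsf4 among them, were called lower. In these bulk libraries, fewer cells of a type and less RNA per cell cannot be told apart. The promoter stretch of Ctla4 is shown as that of a list member called lower.
Ctla4: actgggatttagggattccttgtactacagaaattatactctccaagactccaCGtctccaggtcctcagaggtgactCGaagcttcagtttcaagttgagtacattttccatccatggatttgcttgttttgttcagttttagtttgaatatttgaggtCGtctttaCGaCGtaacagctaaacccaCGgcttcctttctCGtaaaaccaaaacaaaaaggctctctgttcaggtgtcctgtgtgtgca
It covers the 250 bases before the RefSeq start (chr1:60908775-60909024, GRCm38.p6, plus strand) and held 7 CpG, in capitals.

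**Figure D2:**
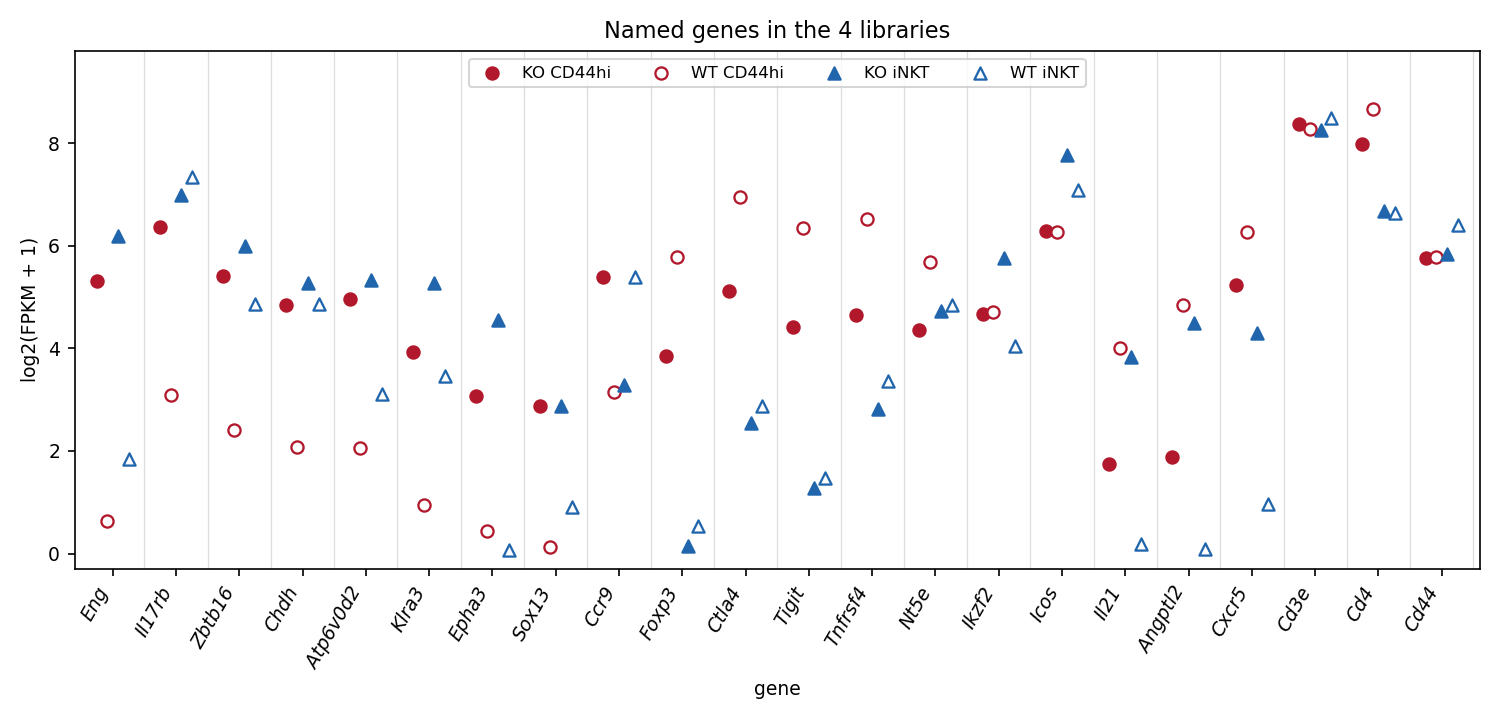
Levels of 22 named genes in KO CD44hi (filled circles), WT CD44hi (open circles), KO iNKT (filled triangles) and WT iNKT (open triangles), as log2(FPKM + 1) on the vertical axis. Eng is high in both KO libraries, Foxp3 is low in both iNKT libraries, and Ikzf2 and Icos lie together in KO and WT CD44hi while Foxp3 and Ctla4 lie apart.

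Tfh genes were lower in part. Of 21 members (23 listed), 6 were lower and 0 higher, beside 1.06% and 1.92% of all members, with a median of -0.62. With the centring on T cell identity genes 3 were lower and the median was -0.23. Angptl2, an angiopoietin-like secreted protein, was at 2.68 FPKM in KO CD44hi and 27.7 in WT CD44hi, the largest decrease among shared members at 10.3-fold (8.94 to 12). Il21, a cytokine through which Tfh cells help B cells, was at 2.34 FPKM in KO CD44hi and 15 in WT CD44hi, Sostdc1, a secreted BMP antagonist, at 4.37 in KO CD44hi and 20.5 in WT CD44hi, and Cebpa, a factor better known from myeloid cells, at 3.0 in KO CD44hi and 7.57 in WT CD44hi. The receptors Pdcd1 (PD-1) and Cxcr5, which guides cells into follicles, were at 24.0 and 36.5 FPKM in KO CD44hi, against 53.6 and 75.9 in WT CD44hi. Other factors of the list did not reach 2-fold: Bcl6, the main Tfh factor, was at 14.5 FPKM in KO CD44hi and 24.1 in WT CD44hi, Tox2 at 18.3 in KO CD44hi and 35.4 in WT CD44hi, and Maf at 49.3 in KO CD44hi and 74.4 in WT CD44hi. Sh2d1a, the signalling adaptor SAP, was at 59.8 in KO CD44hi and 65.9 in WT CD44hi. The Angptl2 stretch (chr2:33215711-33215960, GRCm38.p6, plus strand) is shown as that of the shared gene with the largest decrease and held 9 CpG.
Angptl2: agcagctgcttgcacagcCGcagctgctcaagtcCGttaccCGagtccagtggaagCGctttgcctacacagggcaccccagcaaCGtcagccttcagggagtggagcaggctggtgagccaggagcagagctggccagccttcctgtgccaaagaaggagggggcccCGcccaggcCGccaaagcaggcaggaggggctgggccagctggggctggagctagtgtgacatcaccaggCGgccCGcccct

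iNKT lineage genes split. Of 24 members, 6 were higher and 2 lower, beside 1.92% and 1.06% of all members, and 16 were within 2-fold, with a median of 0.04. Those higher were Zbtb16, Il17rb, Ccr9, Klrb1c, Plac8 and Il18rap. Plac8, which is found in many leukocytes, was at 146 FPKM in KO CD44hi and 42.0 in WT CD44hi, and Il18rap, a subunit of the interleukin 18 receptor, at 29.7 in KO CD44hi and 13.3 in WT CD44hi. Its partner Il18r1 was at 105 FPKM in KO CD44hi and 58.9 in WT CD44hi and Cxcr6 at 127 in KO CD44hi and 69.6 in WT CD44hi, both within 2-fold. Those lower were Nfil3, at 1.66 FPKM in KO CD44hi and 6.52 in WT CD44hi, and Slamf1, at 7.08 in KO CD44hi and 16.2 in WT CD44hi. Egr2, which acts upstream of Zbtb16 in iNKT development, was at 8.20 FPKM in KO CD44hi and 16.3 in WT CD44hi, and Il2rb at 102 in KO CD44hi and 178 in WT CD44hi, neither called.

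The effector lists had called members in both directions, 3 of 18 in the type 1 list, 3 of 10 in the type 2 list, 4 of 11 in the type 17 list and 3 of 13 in the granule list, beside 2.99% of all members. Among 18 type 1 members 1 was higher and 2 lower (median 0.09). Ifng was at 17.9 FPKM in KO CD44hi and 40.0 in WT CD44hi, 2.24-fold lower (1.99 to 2.51), while its regulator Tbx21 (T-bet) was at 37.3 in KO CD44hi and 27.3 in WT CD44hi and Eomes, below the 5 FPKM limit, at 1.5 in KO CD44hi and 3.51 in WT CD44hi. Among 10 type 2 members Il17rb was higher and Il10 and Ccr8 were lower (median -0.40). Gata3, the type 2 regulator, was at 25.3 FPKM in KO CD44hi and 36.8 in WT CD44hi, and Il4 at 11.9 in KO CD44hi and 8.03 in WT CD44hi. Among 11 type 17 members 1 was higher, Sox13, and 3 were lower, among them Il17re and Ccr6 (median -0.58). Il17re, an interleukin 17 receptor family member, was at 1.67 FPKM in KO CD44hi and 6.47 in WT CD44hi. Of 13 granule members, Ctsw, a cathepsin of cytotoxic cells, was higher at 154 FPKM in KO CD44hi and 58.6 in WT CD44hi, and Gzmk and Gzmb, which encode granzymes, were lower, at 4.64 and 2.87 FPKM in KO CD44hi against 21.3 and 9.22 in WT CD44hi. Nkg7, another granule protein, was at 82.3 in KO CD44hi and 78.7 in WT CD44hi.

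Lists of receptors and cytokines, which share members with the lists above, were counted as well. Of 25 trafficking receptors 2 were higher and 6 lower, of 23 cytokines 0 and 5, and of 29 cytokine receptors 2 and 3. Of 20 inhibitory and costimulatory receptors 1 was higher and 4 lower. Over all members 1.92% were higher and 1.06% lower. The medians of these 4 lists, between -0.38 and -0.12, lay above 0 with the centring on T cell identity genes. Among those lower were Gpr15, a receptor for homing to the large intestine, at 1.86 FPKM in KO CD44hi and 5.70 in WT CD44hi, and Itgae (CD103), at 0.949 in KO CD44hi and 6.25 in WT CD44hi. Tnfsf8, the CD30 ligand, was 2.38-fold lower (2.24 to 2.53), at 17.5 FPKM in KO CD44hi and 41.7 in WT CD44hi. Il9r, the interleukin 9 receptor, was 3.69-fold lower (3.27 to 4.16), at 3.41 FPKM in KO CD44hi and 12.6 in WT CD44hi. Other chains of the common gamma chain receptor family stayed within 2-fold, Il2ra and Il2rb with the values given above. Il2rg was at 476 FPKM in KO CD44hi and 453 in WT CD44hi, Il7r at 195 in KO CD44hi and 148 in WT CD44hi, and Il21r at 62.4 in KO CD44hi and 75.6 in WT CD44hi.

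Naive and homing genes and regulators of memory also stood mostly within 2-fold, with medians of -0.24 for both lists that turned to 0.16 with the centring on T cell identity genes. Of 19 naive and homing members Ly6c2 was higher, at 161 FPKM in KO CD44hi and 48.9 in WT CD44hi, and Dapl1 and Igfbp4 were lower. Dapl1 was at 3.10 FPKM in KO CD44hi and 26.6 in WT CD44hi, 8.57-fold lower (5.84 to 13.3). Igfbp4, an insulin-like growth factor binding protein of naive T cells, was 3.41-fold lower (3.09 to 3.77), at 5.88 FPKM in KO CD44hi and 20.0 in WT CD44hi. The factors Tcf7 and Lef1, which maintain naive and memory states, were at 429 and 40.4 FPKM in KO CD44hi, against 505 and 45.4 in WT CD44hi. Of 17 regulators of memory and effector states, Prdm1 and Bhlhe40 were lower and none higher; Myb, at 20.9 FPKM in KO CD44hi and 10.3 in WT CD44hi, came close to 2-fold on the log2(FPKM + 1) scale with a difference of 0.95.

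Lists of general cell functions held between 0 and 2 called members. None of 26 proliferation members, 15 glycolysis members, 10 PRC2 subunits and 3 CDK inhibitors reached 2-fold, beside 2.99% of all members. At that share, lists this short can hold 0 called members. Proliferation genes ranged from -0.34 to 0.55 on the log2 scale, with Mki67 at 14.8 FPKM in KO CD44hi and 18.1 in WT CD44hi and Pcna at 111 in KO CD44hi and 112 in WT CD44hi; their median of -0.03, and that of the glycolysis genes, lay above 0 with the centring on T cell identity genes. Among PRC2 subunits, Eed was at 29.1 FPKM in KO CD44hi and 28.4 in WT CD44hi and Jarid2 at 16.2 in KO CD44hi and 14.6 in WT CD44hi. Of 38 HOX and developmental regulators, classic PRC2 targets, 0 reached 5 FPKM in either CD44hi library, so none could be called. Their summed level was 12.1 FPKM in KO CD44hi and 7.12 in WT CD44hi. Cdkn2a, another known target and no member, was at 1.47 FPKM in KO CD44hi and 0.362 in WT CD44hi. Of 26 interferon stimulated genes Bst2 was higher, at 195 FPKM in KO CD44hi and 64.1 in WT CD44hi, which plasmacytoid dendritic cells carry at a high level; Isg15 was at 31.4 in KO CD44hi and 27.5 in WT CD44hi. Of 25 immediate early genes, which dissociation and sorting can induce, 2 were lower, Tnfaip3 and Cd69 (median -0.39, at 0.00 with the centring). Of 21 T cell identity genes 1 was lower, Ubash3a, a phosphatase that limits T cell receptor signalling, at 18.4 FPKM in KO CD44hi and 45.5 in WT CD44hi.

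**Figure D3:**
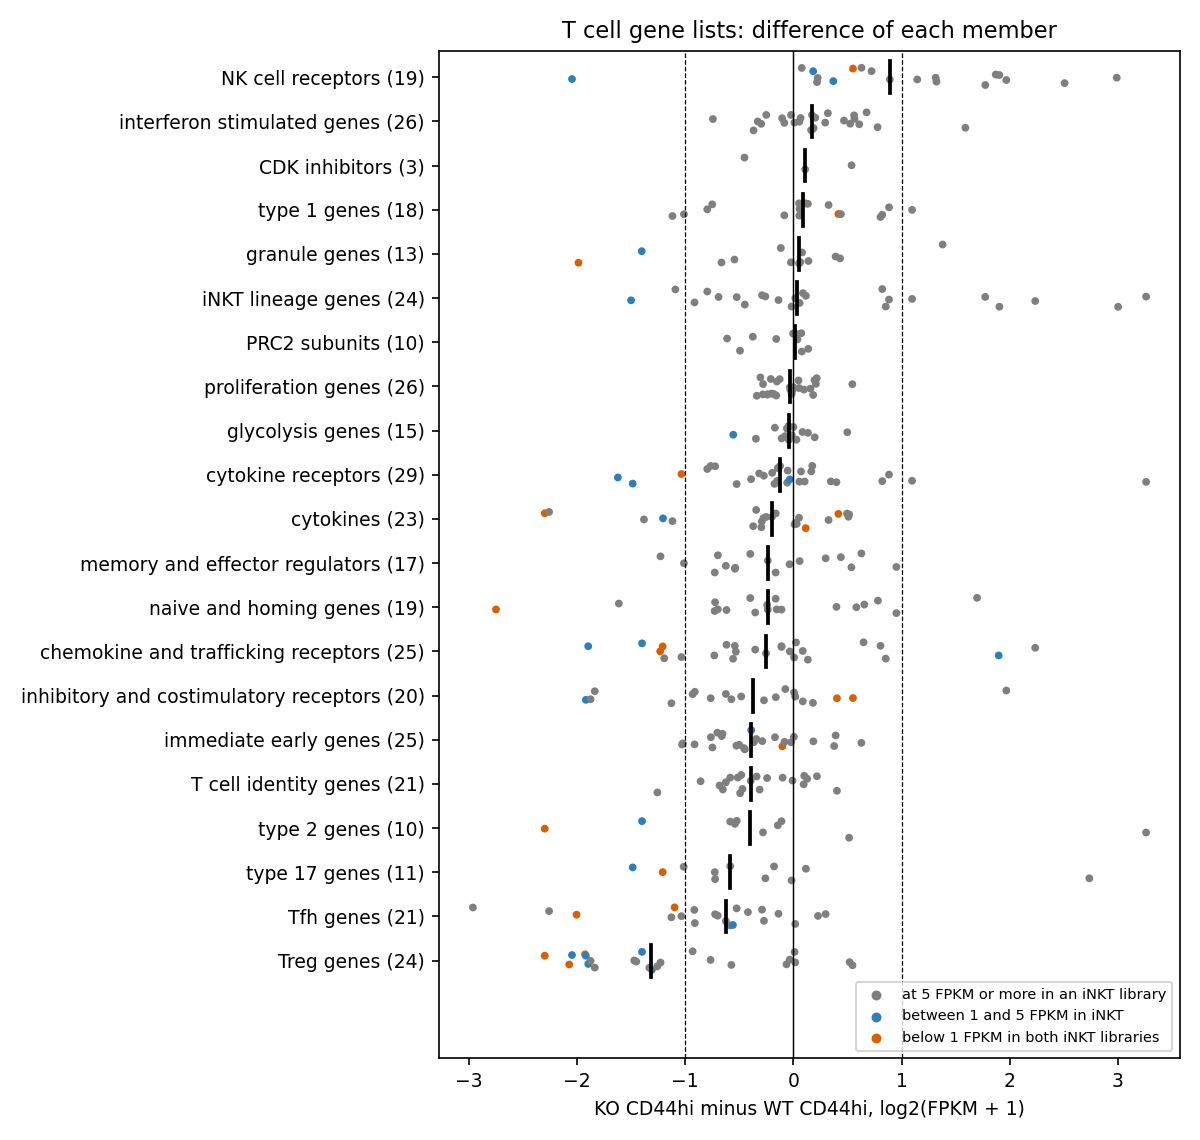
Difference of each member (KO CD44hi minus WT CD44hi, log2(FPKM + 1), horizontal axis) for the T cell lists with at least 3 members, with 1 point a gene coloured by its level in the iNKT libraries, a bar at the list median, the number of members in parentheses and dashed lines at 2-fold. Treg genes have the lowest median (-1.32) and NK cell receptors the highest (0.89); proliferation genes and PRC2 subunits all lie inside the dashed lines.

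RNA of cells other than CD4+ T cells was present in both CD44hi libraries and was unequal between them, and not by 1 common factor. Of 22 plasmacytoid dendritic cell markers (26 listed), 15 were higher in KO CD44hi and 0 lower, beside 1.92% and 1.06% of all members. These markers had a median difference of 1.81 and a summed level of 1007 FPKM in KO CD44hi and 305 in WT CD44hi. The 14 of these below 1 FPKM in both iNKT libraries had a median ratio of 4.70. Siglech, a receptor that these cells carry, was at 75.7 FPKM in KO CD44hi and 11.1 in WT CD44hi, 6.80-fold higher (6.28 to 7.39). It was listed at 0 in both iNKT libraries. Tcf4, their main transcription factor, was at 13.1 FPKM in KO CD44hi and 2.99 in WT CD44hi, Ly6d at 174 in KO CD44hi and 34.7 in WT CD44hi, and Cd300c at 26.0 in KO CD44hi and 3.56 in WT CD44hi. Irf8, a factor of dendritic cells, was at 105 in KO CD44hi and 22.9 in WT CD44hi. The exception in the list was Lag3, which T cells also express, at 22.4 FPKM in KO CD44hi and 38.7 in WT CD44hi.

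The corresponding median ratios were 1.51 for conventional dendritic cell markers, 1.88 for B cell markers and 4.38 for red cell markers. Of 26 monocyte and macrophage markers 2 were higher and 1 was lower, beside 1.92% and 1.06% of all members. The higher ones were Ly6c2 and Tyrobp, which T and NK cells can express, and the lower one was Cebpa. The 7 of these markers below 1 FPKM in both iNKT libraries had a median ratio of 0.871. Csf1r, the receptor that macrophages depend on, was at 18.2 FPKM in KO CD44hi and 20.8 in WT CD44hi, C1qa at 50.5 in KO CD44hi and 47.3 in WT CD44hi, and Emr1 (F4/80) at 11.5 in KO CD44hi and 10.6 in WT CD44hi. Of 13 B cell markers 4 were higher and 1 lower (median 0.66), beside 1.92% and 1.06% of all members. Cd79a, a part of the B cell receptor, was at 30.1 FPKM in KO CD44hi and 15.3 in WT CD44hi, within 2-fold on the log2(FPKM + 1) scale, whereas the called ones, Blnk, Fcrla, Spib and Ly6d, include genes that plasmacytoid dendritic cells also express. The marker called lower was Cxcr5, which Tfh cells share. Of 14 conventional dendritic cell markers, Clec10a and Clec9a were higher, at 16.2 and 7.87 FPKM in KO CD44hi against 1.34 and 1.56 in WT CD44hi, while Itgax (CD11c) was at 50.6 in KO CD44hi and 37.8 in WT CD44hi and Flt3 at 20.2 in KO CD44hi and 11.8 in WT CD44hi. All 13 MHC class II pathway genes were above 0 in difference, from 0.11 to 0.70, with 0 called; their summed level was 5133 FPKM in KO CD44hi and 3392 in WT CD44hi.

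Red cell RNA was also unequal. Globin genes made up 0.244% of summed FPKM in KO CD44hi and 0.0530% in WT CD44hi. Of 11 red cell markers, 5 were higher and 0 lower, beside 1.92% and 1.06% of all members. Hba-a1 was at 509 FPKM in KO CD44hi and 115 in WT CD44hi, and Hba-a2, its near-identical copy, was listed at 38.0 in KO CD44hi and 0.00219 in WT CD44hi, the last value being below 1 fragment. Slc4a1, the red cell anion exchanger, was at 7.25 FPKM in KO CD44hi and 1.65 in WT CD44hi. Markers of CD8 T cells were low beside Cd4: Cd8a was at 3.27 FPKM in KO CD44hi and 1.33 in WT CD44hi, and Cd8b1 at 13.8 in KO CD44hi and 9.87 in WT CD44hi. Of 6 plasma cell markers Igj was higher, at 154 FPKM in KO CD44hi and 40.3 in WT CD44hi, and Prdm1 lower. The lists for gamma delta T cells, CD8 T cells, platelets, neutrophils and mast cells, and stromal and endothelial cells had between 1 and 5 members each. In these small lists 1 was called higher, Sox13, and 2 lower, among them Gzmk. The counts for plasma cells and for these lists also stand beside 1.92% and 1.06% of all members.

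**Figure D4:**
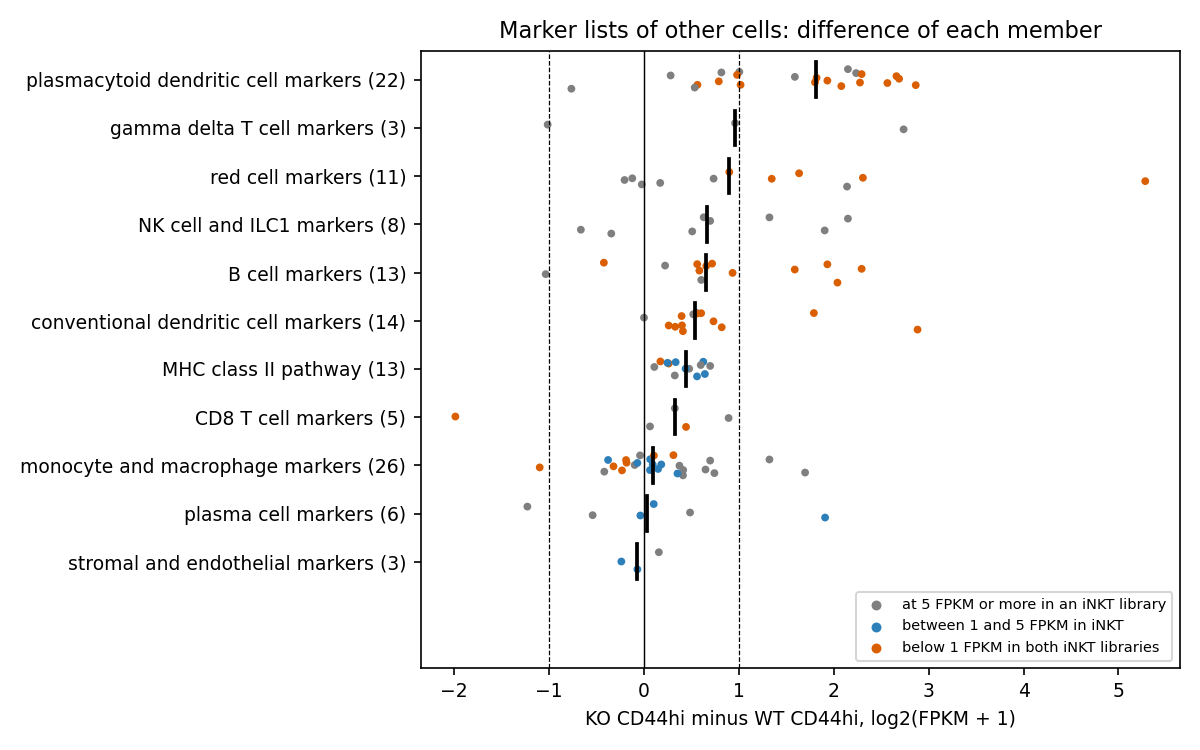
Difference of each member (KO CD44hi minus WT CD44hi, log2(FPKM + 1), horizontal axis) for the marker lists of other cells with at least 3 members, with 1 point a gene coloured by its level in the iNKT libraries, a bar at the list median, the number of members in parentheses and dashed lines at 2-fold. Plasmacytoid dendritic cell markers have the highest median (1.81), while monocyte and macrophage markers centre near 0 (0.10).

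Among the 223 members below 1 FPKM in both iNKT libraries, the largest increase with an interval was that of Clec10a. It was followed by Klk1, a kallikrein protease with close copies, at 53.7 FPKM in KO CD44hi and 6.51 in WT CD44hi, and Cox6a2, a cytochrome c oxidase subunit, at 55.7 in KO CD44hi and 7.80 in WT CD44hi. Both are in the list for plasmacytoid dendritic cells, as is Havcr1, given below. Cd209d, a lectin related to DC-SIGN, was at 26.2 FPKM in KO CD44hi and 3.98 in WT CD44hi, Pltp, the phospholipid transfer protein, at 27.5 in KO CD44hi and 5.08 in WT CD44hi, Dntt, terminal transferase, at 9.97 in KO CD44hi and 1.49 in WT CD44hi, and Havcr1 (TIM-1) at 7.56 in KO CD44hi and 1.03 in WT CD44hi. The lower ones included Dapl1, Il10, Foxp3, Sostdc1 and Gzmk, given above, and Lrrc32 (GARP), a Treg surface protein, at 2.02 FPKM in KO CD44hi and 11.7 in WT CD44hi, Zbtb32, a zinc finger repressor of lymphocytes, at 1.31 in KO CD44hi and 11.4 in WT CD44hi, and Mmp25, a membrane metalloproteinase, at 1.07 in KO CD44hi and 5.46 in WT CD44hi. Leaving out the genes of the lists for other cells and the sex-linked genes, which was chosen after the data were seen, left 35 higher members in place of 54, and 136 higher and 84 lower among all members. Cd209d, Pltp and Dntt are in none of the lists for other cells and stayed in. The part of other cells in the remaining genes was not tested.

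The 415 members between 1 and 5 FPKM in iNKT showed both kinds. Higher ones included Ctsl (cathepsin L), at 47.9 FPKM in KO CD44hi and 8.08 in WT CD44hi, Mpeg1, a pore-forming protein of phagocytes, at 75.8 in KO CD44hi and 18.2 in WT CD44hi, and Pld4, a phospholipase family member, at 115 in KO CD44hi and 44.2 in WT CD44hi. Lower ones included Gpm6b, a membrane glycoprotein, at 4.36 FPKM in KO CD44hi and 26.3 in WT CD44hi, 6.04-fold lower (5.49 to 6.65). Rgs16, which shortens G protein signals, was 4.85-fold lower (4.16 to 5.65), at 3.99 FPKM in KO CD44hi and 19.3 in WT CD44hi. Pdlim4 was at 2.09 in KO CD44hi and 9.58 in WT CD44hi and Npas4, a factor induced by activity in neurons, at 0.913 in KO CD44hi and 5.91 in WT CD44hi. These 28 lower members outnumbered the 16 higher ones, the reverse of the other classes, but this order depended on the scaling. The centring on T cell identity genes gave 376 higher and 40 lower members in all. Of these, 237 and 9 were shared and 94 and 13 were below 1 FPKM in iNKT. The rest, in the class between, then held more higher than lower members.

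Further shared members called lower had roles in signalling and cell shape. Tiam1, which activates the GTPase Rac, was 3.38-fold lower (3.21 to 3.57), at 9.68 FPKM in KO CD44hi and 32.7 in WT CD44hi. Csf1, the macrophage growth factor, was at 1.86 FPKM in KO CD44hi and 6.44 in WT CD44hi, Glipr2 at 18.7 in KO CD44hi and 48.6 in WT CD44hi, Trim59 at 6.87 in KO CD44hi and 18.5 in WT CD44hi, and Sccpdh at 3.38 in KO CD44hi and 10.7 in WT CD44hi. Socs2 and Cish, suppressors of cytokine signalling, were at 4.60 and 15.2 FPKM in KO CD44hi, against 12.4 and 33.7 in WT CD44hi. S100a4, a calcium binding protein of memory T cells, was at 257 FPKM in KO CD44hi and 601 in WT CD44hi. Atp6v0c, a proton pump subunit, was called lower at 25.0 FPKM in KO CD44hi and 59.4 in WT CD44hi, while its pseudogene Atp6v0c-ps2 was called higher at 93.3 in KO CD44hi and 43.9 in WT CD44hi; reads can fall to either copy, so both values are uncertain.

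Promoter CpG content was set beside the calls. A promoter counted as CpG-rich when the 250 bases before its RefSeq start had an observed to expected ratio of CG (read 5′ to 3′; the same on both strands) of at least 0.6 and a GC content of at least 50%, which held for 31.4% of 27025 promoters in the table and 67.4% of 6879 members with a promoter. Among shared members, 48.0% of 75 higher ones, 40.6% of 32 lower ones and 69.4% of those not called were CpG-rich. The share was lower among called genes of both directions than among those not called, with no test made. Among members below 1 FPKM in both iNKT libraries the shares were 23.3% of 43 higher ones, 31.3% of 16 lower ones and 21.0% of those not called. The promoters printed above span this range, from 4 CpG at Eng to 31 at Sox13, both far higher in KO CD44hi.

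The iNKT pair, which shares no library with the CD44hi pair, was set beside these calls for the shared members. Of the 95 higher in KO CD44hi, 31 were also higher in KO iNKT (32.6%) and 19 were lower there (20.0%); among the 7798 shared members not called in CD44hi, 3.14% were higher and 2.60% lower. The 31 genes are 10.7% of the 290 higher in KO iNKT. Of the 41 lower in KO CD44hi, 10 were also lower in KO iNKT (24.4%, and 4.31% of the 232 lower there), and 14 were higher there (34.1%). The limit of 5 FPKM in an iNKT library enters these counts. Of the 31 genes higher in both, 17 reached it in KO iNKT alone, as did 8 of the 14 that were lower in KO CD44hi and higher in KO iNKT. Of the 10 lower in both, 5 reached it in WT iNKT alone. A gene low in WT iNKT is in the set only if KO iNKT brought it there, so the shares are a description and support nothing. The iNKT libraries were shallower. Over all genes that reached 5 FPKM in that pair, 4.66% were higher in KO iNKT and 3.10% lower, 7.77% in all.

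The genes called higher in both KO libraries were led by Eng, which was at 71.9 FPKM in KO iNKT and 2.58 in WT iNKT. Epha3 was at 22.4 FPKM in KO iNKT and 0.0513 in WT iNKT, and Sox13 at 6.30 in KO iNKT and 0.873 in WT iNKT. Genes not in the lists above followed: Nrgn, a calmodulin binding protein known from neurons, was at 14.5 FPKM in KO CD44hi against 4.34 in WT CD44hi, and at 172 in KO iNKT against 6.75 in WT iNKT. Hhex, a homeobox factor, was at 14.9 FPKM in KO CD44hi against 5.29 in WT CD44hi and at 29.3 in KO iNKT against 1.85 in WT iNKT. Ryk, a receptor for Wnt ligands, was at 13.4 FPKM in KO CD44hi against 4.40 in WT CD44hi and at 11.3 in KO iNKT against 0.127 in WT iNKT. Cxxc5, which binds unmethylated CpG, was at 19.8 FPKM in KO CD44hi against 5.18 in WT CD44hi and at 28.3 in KO iNKT against 4.59 in WT iNKT. Those called lower in both included Glipr2, Serpina3f, Socs2, Ubash3a, Prdm1, S100a4, Ifng, Cish and Bhlhe40. Ifng was at 12.9 FPKM in KO iNKT and 112 in WT iNKT, and Socs2 at 0.444 in KO iNKT and 27.3 in WT iNKT.

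**Figure D5:**
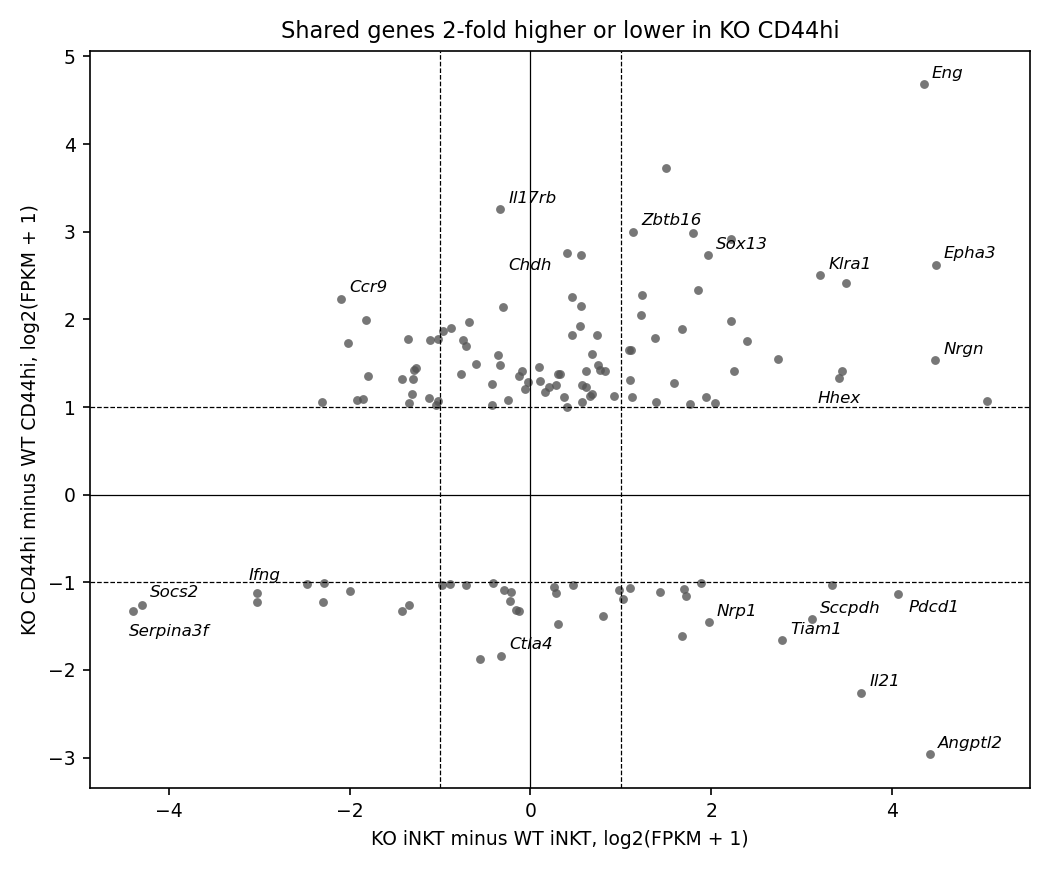
Difference in the CD44hi pair (KO minus WT, vertical axis) against the difference in the iNKT pair (KO minus WT, horizontal axis), both in log2(FPKM + 1), for the 136 shared members called in CD44hi, with dashed lines at 2-fold. Eng and Epha3 lie far to the upper right (higher in both KO libraries), Angptl2 and Il21 to the lower right (lower in KO CD44hi, higher in KO iNKT), and Socs2 and Serpina3f to the lower left.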

How the data were processed

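The values are FPKM per gene and library, as the authors deposited them and per the file headers; the files give no counts, and gene annotation, filters and strand setting are not given in the sources used here. Reads were handled with Cufflinks 2.0.2, TopHat 1.3.2 and Bowtie2 2.0.0 on mm10, per the submitters' processing notes, which state no order. Values of 240 symbols on several rows were summed, 774 symbols of small RNA genes and 26 symbols not in every file were left out, and 22484 symbols were used (Python 3.11.15, numpy 2.4.6, pandas 2.3.3, scipy 1.17.1, matplotlib 3.10.9). Differences are of log2(FPKM + 1), KO minus WT, called at 1 or beyond. Fragments were estimated from the spacing of low FPKM values of genes of at least 3000 bases (GENCODE M21 lengths, 90.9% of members). Steps were whole within 0.15 for 70.0 to 74.0% of low values. The estimator was also run on simulated data. Those were made with the same lengths that it assumes, so the run does not test its fit to the deposited values. Exact intervals (Clopper-Pearson, 95%) use these estimates. GRCm38 coordinates come from GENCODE M21 and RefSeq; promoter sequences come from RefSeq (80.2% of members). Members and lists were chosen with earlier results of these data known. Named genes were the 15 largest and 15 smallest differences of shared members, 15 and 10 of those below 1 FPKM in both iNKT libraries, 10 and 10 of those between, list members, regulators, runs of at least 3 neighbours and genes next to the limits. Genes called alike in both pairs, Ncr1, Klra4, Klra7, Klra8, Gpr83, Il1rl1, Cd8a, Atp6v0c and genes of runs of 2 were named after their values were seen. Alternatives changed the pseudocount, filter, scaling, limits of the iNKT classes and rows summed. Values of some list members are not reported here.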

Additional observations from a re-analysis of the deposited data

Results flagged for a closer look

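Of the 8572 members, 44 passed 2-fold in opposite directions in the CD44hi pair and in the iNKT pair, 21 of them higher and 23 lower in KO CD44hi. The difference between the pairs was not tested, since each group was 1 library. The 22 named ones are given with the log2 difference (KO minus WT) in CD44hi first and in iNKT second.

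Lower in KO CD44hi and higher in KO iNKT were the Tfh genes Angptl2 (-2.96 and 4.42), Il21 (-2.26 and 3.66), Pdcd1 (-1.13 and 4.07) and Cxcr5 (-1.03 and 3.33). Tiam1 (-1.66 and 2.78), Sccpdh (-1.42 and 3.11), Nrp1 (-1.45 and 1.97) and Igfbp4 (-1.61 and 1.67) went the same way. So did Gpm6b (-2.35 and 1.21), Rgs16 (-2.03 and 1.76), Npas4 (-1.85 and 1.83), Il9r (-1.62 and 1.01) and Itgb1 (-1.19 and 1.02).

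Higher in KO CD44hi and lower in KO iNKT were Ccr9 (2.24 and -2.10), P2ry14 (1.90 and -1.04), Plac8 (1.77 and -1.36) and Il18rap (1.1 and -1.12). The NK cell receptor genes Klrc1 (1.77 and -1.02) and Klrc2 (1.32 and -1.30) and the adaptor gene Tyrobp (1.32 and -1.42) did likewise, as did Ctla2a (1.45 and -1.27) and 4930486L24Rik (1.02 and -1.04). Ccr9 is a marker of plasmacytoid dendritic cells and Tyrobp of myeloid and NK cells, and the part of such cells in these values was not tested.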

How the results depend on the processing

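No paired analysis was possible because each group was 1 library. For the same reason no library could be left out. Of 100 genes named by rank, position or as regulators, 80 were called. Their direction could not change: a pseudocount leaves the sign as it is, and the centring shift of 0.39 is smaller than the criterion. Of the 20 within 2-fold, 8 changed sign when centred on T cell identity genes. Of the 80, 61 kept 2-fold with a pseudocount of 5 and 71 with differences centred on T cell identity genes. All 80 kept it with a pseudocount of 0.1, as they must, since a smaller pseudocount enlarges every difference. In KO CD44hi, a pseudocount of 5 gave 88 higher and 35 lower members (main values 165 and 91), with 55 and 17 among shared members and 28 and 9 among those below 1 FPKM in iNKT. A filter of 1 FPKM gave 277 higher, with 106 higher and 49 lower among members below 1 FPKM in iNKT. No filter gave the same, as it must, since genes below 1 FPKM in both CD44hi libraries cannot differ by 1. A filter of 10 FPKM gave 108 higher and 58 lower, with 32 and 12 among members below 1 FPKM in iNKT. Centring on T cell identity genes gave 376 higher and 40 lower, with 237 and 9 shared and 94 and 13 below 1 FPKM in iNKT; it turned the sign of 11 list medians. A limit of 0.2 FPKM for the last class gave 33 higher and 8 lower, a limit of 1 FPKM for shared members gave 69 lower, and leaving out the genes of lists for other cells and the sex-linked genes, chosen after the data were seen, gave 35 higher in the last class. The depth of the iNKT libraries, where 1 fragment in 2 kb gives 0.0897 FPKM in KO iNKT and 0.0969 in WT iNKT, limits the class below 1 FPKM.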
